A study of Homo sapiens with 13 samples.

Results

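The designs described here are arrays that hold FOXO and NFKB binding motifs and no other motif, found by splitting each deposited construct name into its motifs. With 5 bp between neighbouring motifs there were 21 such arrays of 542 constructs analysed, made of 7 motif orders in each of 3 flanking sequence contexts. They carried 10323 of the 236860 barcodes kept. With 10 bp spacers there were 18 arrays of 442 constructs (10512 of 210844 barcodes), since NFKB_FOXO_NFKB was not among the constructs analysed in that library. After integration of the 5 bp library into the genome, the same 21 arrays were among 513 constructs, with 449 of 16162 barcodes. The names give the motifs in order, so FOXO_NFKB_FOXO holds 1 NFKB motif between 2 FOXO motifs.

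The study measured enhancer activity by STARR-seq, in which a candidate enhancer lies inside the reporter transcript, so that a more active sequence takes a larger share of the reporter mRNA. All samples came from MEC1, an established cell line from chronic lymphocytic leukaemia, a cancer of B lymphocytes, labelled as wild type and without a drug or stimulus. For each spacer length the episomal assay had 1 library of the plasmid pool and 2 mRNA libraries from duplicate transfections, with RNA taken after 24 h. The integrated assay used MEC1 cells with a CRE recombinase under blasticidin control and a landing pad whose GFP cassette, driven by the CMV promoter, is exchanged for a library plasmid. These cells were kept in blasticidin before transfection, and cells without GFP were sorted after growth for 10 to 12 days. They grew for another 6 to 7 days before mRNA and genomic DNA were extracted together in triplicate. The labels do not say whether the triplicates were separate cultures, so p-values of the integrated assay measure the spread between these samples, which may be technical.

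NFKB dimers are held in the cytoplasm by inhibitor proteins until signals such as those of the B cell receptor, CD40 or Toll-like receptors release them to the nucleus, where they activate genes of survival and inflammation. FOXO factors are forkhead proteins that PI3K and AKT signalling moves out of the nucleus, and in B cells they act on genes of development, cell cycle arrest and survival. Signals through the B cell receptor can therefore act on both families. An array that mixes both motifs can be compared with the array of the same number of NFKB motifs alone and with the array of the same number of FOXO motifs alone.

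Activity was taken as the log2 ratio of a construct's share of mRNA reads to its share of plasmid reads, or, after integration, of its summed mRNA to its summed genomic DNA in RPM, reads scaled to the sequencing depth of the library. Each construct was read through many random 12 bp barcodes, and the following were the 3 with the most plasmid reads for the most active array of the 5 bp library, for its all-NFKB and all-FOXO counterparts and for the construct without a motif, all in context 1. They are tags that identify a construct in the reads, not regulatory sequence, and are shown to let the ratio be seen read by read.
FOXO_NFKB_FOXO_NFKB_FOXO: gatcagcagccc
FOXO_NFKB_FOXO_NFKB_FOXO: ataacctactac
FOXO_NFKB_FOXO_NFKB_FOXO: tgcatggcaagt
NFKB_NFKB_NFKB_NFKB_NFKB: aaggcatgcttc
NFKB_NFKB_NFKB_NFKB_NFKB: tgaaaactgatc
NFKB_NFKB_NFKB_NFKB_NFKB: ccccatttgcga
FOXO_FOXO_FOXO_FOXO_FOXO: attcgcaagaca
FOXO_FOXO_FOXO_FOXO_FOXO: actggactggaa
FOXO_FOXO_FOXO_FOXO_FOXO: aaaagtgcattt
rd: tgaaaccatata
rd: ttatatctaaat
rd: taggcagatttt

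For the mixed array, gatcagcagccc had 58 plasmid reads against 571 and 459 mRNA reads, ataacctactac had 42 against 400 and 355, and tgcatggcaagt had 40 against 372 and 308. These are 17.8, 18.0 and 17.0 mRNA reads, both libraries together, for each plasmid read. The 3 all-NFKB barcodes gave 18.0, 9.52 and 12.9, the 3 all-FOXO barcodes 0.979, 1.73 and 0.722, and the 3 barcodes of rd 0.714, 0.493 and 0.179. The mixed array's barcodes thus lay close together, at the upper end of the all-NFKB barcodes, and above every all-FOXO and rd barcode shown. Over all its 115 barcodes, the mixed array took 0.0476% of the plasmid reads and 0.505% and 0.478% of the mRNA reads. By contrast, rd in context 1 took 0.226% of the plasmid reads and 0.0939% and 0.0964% of the mRNA reads over 541 barcodes. These shares, like those in the activity ratio, are of the reads of the barcodes kept and not of the whole library.

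The 6 episomal libraries held 3850658 to 4563359 reads, not all of them from barcodes kept (named, with at least 5 plasmid reads). Of the reads of the barcodes kept, the arrays with FOXO and NFKB took 3.91% for plasmid and 11.5% for mRNA in both replicates at 5 bp. At 10 bp these arrays took 4.94% against 9.25% and 9.23%. Each had 115 to 1429 barcodes at 5 bp (median 426) and 352 to 869 at 10 bp (median 551), but only 7 to 46 after integration (median 18). In the episomal tables every barcode listed had at least 1 read in each library, so that barcodes without mRNA could not count against a weak construct. Between 27.8% and 36.2% of the barcodes of the 3 rd constructs had a single read in at least 1 mRNA library at 5 bp, against 0% to 9.58% for the mixed arrays, so differences from rd may be understated. After integration 63.4% of all barcodes had no mRNA in any replicate, and 2 barcodes of other constructs held 38.4% of all mRNA RPM. Replicates shared plasmid pool and barcodes, so that their SD leaves out the spread between barcodes. A standard error over barcodes is therefore given beside key values, and was 0.03 to 0.10 on the log2 scale for the mixed arrays at 5 bp, 0.03 to 0.06 at 10 bp and 0.22 to 1.31 after integration.

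With 5 bp spacers, the longest arrays of FOXO and NFKB, which alternate the motifs, were the most active of the mixed arrays in these cells. The only order that does not alternate, FOXO_NFKB_FOXO_FOXO, holds 1 NFKB motif against 2 in FOXO_NFKB_FOXO_NFKB. Alternation and the number of NFKB motifs therefore cannot be told apart. FOXO_NFKB_FOXO_NFKB_FOXO in context 1 ranked first of all 542 constructs, at 4.68 and 4.56 log2 units above rd in the 2 replicates, which is 24.5-fold. In context 2 its replicates stood at 3.83 and 3.92 and in context 3 at 3.91 and 3.80, ranks 4 and 5. Ranks 2 and 3 were held by 5 NFKB motifs alone, in contexts 1 and 3. No replicate of the array in contexts 2 or 3 reached the replicates of context 1. All 21 arrays were called higher than rd of their context by edgeR's quasi-likelihood test with Benjamini-Hochberg adjustment over all pairs of the library (adjusted p under 0.05, the threshold used throughout), where 61.6% of 539 motif constructs were. The smallest difference was 1.47 (SE 0.10) for FOXO_NFKB in context 2. Their median over rd was 2.85, against 0.51 for all constructs with a motif.

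The 7 orders formed a graded series, given here as the mean over the 3 contexts of the log2 activity over rd, with the SD between contexts. FOXO_NFKB reached 1.64 ± 0.14, NFKB_FOXO 2.25 ± 0.20 and FOXO_NFKB_FOXO 2.62 ± 0.25. FOXO_NFKB_FOXO_FOXO reached 2.98 ± 0.20 and NFKB_FOXO_NFKB 3.06 ± 0.35. FOXO_NFKB_FOXO_NFKB reached 3.55 ± 0.24 and FOXO_NFKB_FOXO_NFKB_FOXO 4.12 ± 0.43. The ranges over contexts of neighbours overlapped from NFKB_FOXO up to FOXO_NFKB_FOXO_NFKB, whereas FOXO_NFKB lay wholly below NFKB_FOXO and the array of 5 motifs wholly above FOXO_NFKB_FOXO_NFKB. The rise was seen barcode by barcode: 91.7% of the barcodes of FOXO_NFKB in context 2 were above the median rd barcode of their context, and 100% of those of FOXO_NFKB_FOXO_NFKB_FOXO were in each context.

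Seen by the number of NFKB motifs, the level over rd was higher the more FOXO motifs stood around them. Homotypic NFKB arrays, those with NFKB alone, gave 1.89-fold over rd for 1 motif and 5.53-fold for 2 as means over contexts. With 1 NFKB motif the mixed arrays gave 3.12-fold with FOXO before it, 4.76-fold with FOXO after it, 6.17-fold with FOXO on both sides and 7.91-fold for FOXO_NFKB_FOXO_FOXO. With 2 NFKB motifs they gave 8.35-fold for NFKB_FOXO_NFKB, 11.7-fold for FOXO_NFKB_FOXO_NFKB and 17.3-fold for FOXO_NFKB_FOXO_NFKB_FOXO. FOXO motifs alone gave 1.27-fold for 1 copy and 1.63-fold for 5. Arrays with the same number of NFKB motifs also differ in total length, which was not tested apart from the motifs.

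Set against homotypic arrays of the same total number of motifs and the same context, the 5 bp mixed arrays were far above FOXO alone and, for the most part, level with or below NFKB alone. Against FOXO alone all 21 were called higher by edgeR, by 1.11 (SE 0.10) for FOXO_NFKB in context 2 up to 3.70 (SE 0.11) for FOXO_NFKB_FOXO_NFKB_FOXO in context 1, where 60.9% of 133 mixed arrays with FOXO and any partner were. Against NFKB alone 3 were called higher and 11 lower. Among all 102 mixed arrays with NFKB and any partner, 3.92% were called higher and 81.4% lower than the NFKB array of equal length.

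The 3 arrays called higher than NFKB alone at 5 bp were long and alternating, and each held 2 NFKB motifs. FOXO_NFKB_FOXO_NFKB_FOXO in context 1 stood at 4.68 and 4.56 over rd against 4.09 and 3.95 for 5 NFKB motifs, a difference of 0.60 (SE 0.09; barcode SE 0.09; edgeR adjusted p = 1.6e-09). In context 2 it stood at 3.83 and 3.92 against 3.37 and 3.33, a difference of 0.52 (SE 0.11; barcode SE 0.10; edgeR adjusted p = 3.1e-06). FOXO_NFKB_FOXO_NFKB in context 2 stood at 3.53 and 3.59 against 3.27 and 3.28 for 4 NFKB motifs, a difference of 0.28 (SE 0.08; barcode SE 0.07; edgeR adjusted p = 0.0013). In each case both replicates of the mixed array were above both of the NFKB array, although the mixed array had fewer NFKB motifs. In context 3 the 5-motif array was not called, at -0.13 (SE 0.11), and FOXO_NFKB_FOXO_NFKB was not called in contexts 1 and 3, at 0.03 (SE 0.09) and 0.04 (SE 0.08).

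The 11 arrays called lower than NFKB alone at 5 bp included FOXO_NFKB in all 3 contexts, by -0.75, -0.69 and -1.04 (SE 0.09, 0.09 and 0.08), and FOXO_NFKB_FOXO in all 3, by -0.45, -0.46 and -0.77 (SE 0.06, 0.07 and 0.06). FOXO_NFKB_FOXO_FOXO was lower in context 1 by -0.50 and in context 3 by -0.74, and stood at -0.11 (SE 0.08), not called, in context 2. These arrays hold a single NFKB motif and begin with FOXO. The orders that begin with NFKB lay closer to NFKB alone. NFKB_FOXO was not called in contexts 1 and 2, at -0.02 (SE 0.08) and -0.11 (SE 0.08), and was lower in context 3 by -0.52 (SE 0.08). NFKB_FOXO_NFKB was not called in context 1, at -0.02 (SE 0.06), and was lower in contexts 2 and 3 by -0.13 and -0.22 (edgeR adjusted p = 0.048 and 9.8e-05). With barcodes of at least 20 plasmid reads neither of these 2 calls remained, at -0.03 and -0.07, and DESeq2 did not call the first.

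Exchanging the motifs changed activity at 5 bp in all 6 pairs, always in favour of the array with NFKB first, where 77.4% of 155 exchanges of any motif pair were called in either direction. FOXO_NFKB was lower than NFKB_FOXO by -0.74, -0.58 and -0.52 in contexts 1, 2 and 3 (SE 0.09 each), with edgeR adjusted p = 3.5e-11, 2.9e-08 and 3.6e-07. Those 2 arrays hold the same motifs and differ only in order. FOXO_NFKB_FOXO was lower than NFKB_FOXO_NFKB by -0.43, -0.33 and -0.55 (SE 0.08, 0.07 and 0.08; edgeR), a pair that also differs in how many NFKB motifs it holds. The barcode standard errors of these 6 differences were 0.04 to 0.06.

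Adding a motif to the end of an array raised activity in 19 of 21 comparisons at 5 bp and lowered it in none by edgeR, where 39.8% of 515 extensions of any array were called higher and 34% lower. The median gain was 0.94. A FOXO motif, which alone stood 0.20 to 0.49 over rd, added 1.79, 0.94 and 1.26 (SE 0.07, 0.07 and 0.08) after a single NFKB motif in contexts 1, 2 and 3. An NFKB motif added 1.37, 0.98 and 1.52 after a single FOXO motif. From FOXO_NFKB_FOXO, a further NFKB added 0.63, 1.20 and 0.94, and a further FOXO added 0.10 (not called), 0.81 and 0.17. The fifth motif, a FOXO, added 1.31 in context 1, 0.31 in context 2 and 0.07 (SE 0.07, not called) in context 3.

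Arrays of the same pattern and context in which another motif stood in for one of the 2 were mostly less active at 5 bp. Over 193 such pairs the FOXO and NFKB array was called higher in 165 and lower in 12 by edgeR, where a mixed array was the higher one in 42.7% of all such comparisons, each pair counted in both directions. When NFKB was the motif replaced, 107 of 112 were higher and 1 was lower. The median difference was 3.94 against CTCF, the architectural factor, 2.44 against MYC, 1.47 against RUNX3, 1.46 against IRF, 1.31 against PU1 and 0.43 against MEF2. When FOXO was the motif replaced, 58 of 81 were higher and 11 lower, with medians of 3.86 for CTCF, 0.88 for PU1, 0.67 for IRF, 0.41 for RUNX3, 0.29 for MEF2 and 0.23 for MYC. With MEF2, a factor of lymphocyte and muscle genes, in place of FOXO the differences ran from -1.12 to 2.24. That was over 21 pairs, against 12 for each other motif. With NFKB replaced, MEF2 had 12 pairs, CTCF 16 and each other motif 21, so the medians cover different sets of arrays. MEF2_NFKB was above FOXO_NFKB in each context, with FOXO_NFKB minus MEF2_NFKB at -0.55, -0.86 and -1.12, whereas FOXO_NFKB_FOXO_NFKB_FOXO was above MEF2_NFKB_MEF2_NFKB_MEF2 by 1.57, 1.48 and 1.31. The replaced arrays are shared between comparisons, so these counts are not independent.

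The flanking context also bore on a given array. At 5 bp, 13 of 21 differences between contexts were called by edgeR, against 54.4% of 531 for all designs. Of these, 3 were higher in the context with the larger number and 10 lower. They are differences of activity without subtracting rd, which itself stood at -1.25, -1.12 and -1.55 in contexts 1, 2 and 3. They therefore include the difference between the flanks without a motif. The widest was FOXO_NFKB_FOXO_NFKB_FOXO, lower in context 3 than in context 1 by -1.06 (SE 0.10) and in context 2 than in context 1 by -0.61 (SE 0.10). FOXO_NFKB_FOXO was called in no pair of contexts, with differences of -0.18, -0.13 and 0.05 (SE 0.08, 0.07 and 0.07). Over rd that array stood at 2.67, 2.36 and 2.85 in contexts 1, 2 and 3. FOXO_NFKB_FOXO_FOXO was highest in context 2, above context 1 by 0.53 and with context 3 minus context 2 at -0.59.

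With 10 bp spacers all mixed arrays were above rd, and those of 3 or more motifs were above NFKB alone. FOXO_NFKB_FOXO_NFKB_FOXO was the most active of them in contexts 3 and 1, at 2.31 and 2.48 over rd (5.26-fold, rank 6 of 442) and at 2.02 and 2.16. In context 2 it stood at 1.24 and 1.42, below FOXO_NFKB_FOXO at 1.45 and 1.47. The lowest was NFKB_FOXO in context 2, at 0.41 in both replicates. All 18 were called higher than rd by edgeR, where 44.2% of 439 motif constructs were. As means over contexts with the SD between them, NFKB_FOXO stood at 0.98 ± 0.55 over rd, FOXO_NFKB at 1.39 ± 0.68, FOXO_NFKB_FOXO at 1.46 ± 0.21, FOXO_NFKB_FOXO_FOXO at 1.60 ± 0.53, FOXO_NFKB_FOXO_NFKB at 1.74 ± 0.46 and FOXO_NFKB_FOXO_NFKB_FOXO at 1.94 ± 0.55. The ranges over contexts of neighbours in this order all overlapped.

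The homotypic arrays of 3 or more motifs were weak at 10 bp, whereas the shorter ones varied with context. A single NFKB motif stood at 1.13, -0.47 and 2.04 log2 units over rd in contexts 1, 2 and 3. The last of these ranked 19 of 442. A single FOXO motif stood at -0.15, -0.57 and 1.15. NFKB alone gave 2.23-fold over rd for 2 motifs, 1.01-fold for 3, 1.02-fold for 4 and 1.55-fold for 5 as means over contexts, and FOXO alone gave 1.10-fold for 1 motif, 0.535-fold for 4 and 0.563-fold for 5. The mixed arrays gave 2.75-fold for 3 motifs, 3.04-fold and 3.33-fold for 4 and 3.83-fold for 5. Each mixed array of 3 or more motifs was thus above both of its parents in every context.

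By edgeR, all 18 mixed arrays were higher than FOXO alone at 10 bp, by 1.40 (SE 0.07) for NFKB_FOXO in context 3 to 3.03 (SE 0.08) for FOXO_NFKB_FOXO_NFKB_FOXO in context 1, where 67.6% of 111 mixed arrays with FOXO were. Against NFKB alone 14 were higher and 1 was lower, where 60.7% of 84 mixed arrays with NFKB were called higher and 28.6% lower. The largest difference was FOXO_NFKB_FOXO_NFKB in context 1, at 1.83 and 1.98 over rd against -0.35 and -0.04 for 4 NFKB motifs, a difference of 2.09 (SE 0.09; barcode SE 0.07). FOXO_NFKB_FOXO was above 3 NFKB motifs by 0.60, 1.87 and 1.87 (SE 0.07 each), and FOXO_NFKB_FOXO_NFKB_FOXO above 5 by 1.55, 0.80 and 1.57 (SE 0.09, 0.08 and 0.08). Arrays of 2 motifs lay near NFKB_NFKB. FOXO_NFKB was higher by 0.16 and 0.41 in contexts 1 and 3 (the first not called by DESeq2) and stood at 0.11 (SE 0.07, not called) in context 2. NFKB_FOXO was lower by -0.45 (SE 0.07) in context 1 and was not called in contexts 2 and 3, at -0.09 (SE 0.08) and 0.0046 (SE 0.07).

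The preferred order was the opposite at 10 bp. FOXO_NFKB stood at 1.62 and 1.64 over rd in context 1 against 1.01 and 1.02 for NFKB_FOXO, at 0.61 and 0.62 against 0.41 and 0.41 in context 2, and at 1.84 and 1.99 against 1.43 and 1.58 in context 3. The differences of 0.61, 0.20 and 0.41 (SE 0.07, 0.06 and 0.05) all passed with edgeR, at adjusted p = 1e-07, 0.0053 and 6.4e-09, where 57.5% of 87 exchanges were called in either direction. With barcodes of at least 20 plasmid reads the difference in context 2 was lost, at -0.01. The difference between spacers in the effect of the exchange was tested in one edgeR model over both libraries. FOXO_NFKB minus NFKB_FOXO was larger at 10 bp than at 5 bp by 1.35 (SE 0.10), 0.78 (SE 0.11) and 0.93 (SE 0.09) in contexts 1, 2 and 3 (adjusted p = 8.3e-24, 1.6e-10 and 5.5e-17), where 51.7% of 87 exchanges differed between spacers in either direction.

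Extension gave mixed results at 10 bp. By edgeR 11 of 18 arrays were higher than the array without its last motif and 5 were lower, where 37.3% of 415 were called higher and 40.5% lower, with a median of 0.31. NFKB added after a single FOXO gave 1.78, 1.18 and 0.77 in contexts 1, 2 and 3. FOXO added after a single NFKB gave -0.12 (not called), 0.89 and -0.53, in place of the 1.79, 0.94 and 1.26 at 5 bp. The difference between spacers in that step was -1.91 and -1.79 in contexts 1 and 3 (edgeR adjusted p = 3.4e-11 for both) and -0.06 (SE 0.12, not called) in context 2. The single NFKB motif itself stood at 1.13, -0.47 and 2.04 over rd in the 3 contexts at 10 bp, so that the contexts differed before FOXO was added.

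Replacement of 1 motif lowered activity in most 10 bp pairs: of 144, 110 were called higher for FOXO and NFKB and 23 lower by edgeR, where a mixed array was the higher one in 45% of comparisons counted in both directions. IRF, the interferon regulatory factor motif, stood apart. With FOXO replaced by IRF the FOXO and NFKB array was lower in 6 of 6, by -0.32 to -1.84, the widest being NFKB_FOXO against NFKB_IRF in context 2. With NFKB replaced by IRF, 7 of 18 were higher and 7 lower, with a median of 0.08. At 5 bp the counts were 9 higher and 2 lower of 12 with FOXO replaced, and 21 higher of 21 with NFKB replaced. Those 5 bp sets also hold pairs that were not compared at 10 bp. RUNX3 in place of FOXO was mixed too, with 2 of 6 higher for the FOXO and NFKB array and 3 lower. CTCF in place of FOXO or NFKB gave lower activity in all 9 and all 15 pairs at 10 bp.

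Between contexts at 10 bp, again without subtracting rd, 14 of 18 differences were called by edgeR, close to the 74.4% of 437 for all designs. Context 2 was the lowest for 5 of the 6 orders, for example by -0.65 (SE 0.08) against context 1 for FOXO_NFKB. FOXO_NFKB_FOXO was the exception, with context 2 above context 1 by 0.58 (SE 0.08). The single NFKB and FOXO motifs were also lowest in context 2, at -0.78 and -0.88 without subtracting rd and -0.47 and -0.57 over rd. Without subtracting rd, FOXO stood close by in context 1, at -0.83. The activity of rd itself ran from -0.87 to -0.31 over the contexts.

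Set directly against each other over the 6 episomal libraries, 13 of the 18 shared designs were lower with 10 bp than with 5 bp spacers and 2 were higher by edgeR with TMM scaling, where 42.3% of 442 designs were lower. FOXO_NFKB_FOXO_NFKB_FOXO had the largest fall in contexts 1 and 2, at -1.95 (SE 0.07) and -1.73 (SE 0.08). In context 3 it stood at -0.77 (SE 0.09), and FOXO_NFKB_FOXO_NFKB fell further, by 1.01 (SE 0.07). The 2 higher designs were FOXO_NFKB in contexts 1 and 3, at 0.49 (SE 0.08) and 0.88 (SE 0.07). This comparison depends on how the libraries are scaled. Scaling on the 3 rd constructs moved the median of all 442 designs from -0.05 to -0.76, left 16 of the 18 lower and none higher (69.5% of all designs lower), and put FOXO_NFKB at -0.22 and 0.17 in contexts 1 and 3, neither of which was called. Among all designs the split of higher against lower calls moved from 161 and 187 to 66 and 307. Differences between constructs of one library do not depend on this scaling.

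One such difference is that from NFKB alone, taken with its sign. By edgeR it was higher at 10 bp than at 5 bp for 16 of 18 mixed arrays and lower for 1. A higher value held for 86.9% of all 84 mixed arrays with NFKB and any partner, so it was not particular to FOXO. It need not be a wider gap: FOXO_NFKB went from -0.75, -0.69 and -1.04 to 0.16, 0.11 and 0.41 in contexts 1, 2 and 3. The median shift was 1.03 and the largest was 2.64 (SE 0.11) for FOXO_NFKB_FOXO in context 3, from -0.77 to 1.87. The exception was NFKB_FOXO in context 1, with a shift of -0.43 (SE 0.11), and NFKB_FOXO in context 2 was not called, at 0.02 (SE 0.11). Over the 18 shared designs, activity over rd at 5 and at 10 bp had a Pearson correlation of 0.50, and of 0.61, 0.66 and 0.68 within contexts 1, 2 and 3 (6 designs each). The designs of a context share its rd construct and some are nested in others, so these values are descriptive.

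After integration the mixed arrays had mRNA for a larger share of their barcodes than FOXO arrays or rd. Of their 449 barcodes, 36.0% ± 4.3 (SD, n = 3) had mRNA in a replicate, against 43.7% ± 7.1 for NFKB alone (362 barcodes), 13.3% ± 3.1 for FOXO alone (457 barcodes), 9.49% ± 3.08 for rd (123 barcodes) and 19.6% ± 2.7 for all 16189 barcodes listed. The replicate values were 34.1%, 41.0% and 33.0% for the mixed arrays, 13.8%, 16.2% and 10.1% for FOXO alone and 7.32%, 13.0% and 8.13% for rd. Those of the mixed arrays lay above all of FOXO alone and rd. NFKB alone gave 43.1%, 51.1% and 37.0%, a set that also holds single motifs. At equal numbers of motifs the mixed arrays had the lower share: 22.1% ± 3.0 against 40.4% ± 9.1 for 2 motifs, 40.6% ± 5.9 against 55.4% ± 9.2 for 3 and 41.2% ± 4.9 against 59.1% ± 1.9 for 4 (SD, n = 3 each), with no overlap between the replicates at any of these lengths. These shares were not tested. Pooling the replicates, 59.5% of the mixed barcodes had mRNA in at least 1 of them, with an exact 95% binomial interval of 54.8% to 64.0%, against 29.3% (25.2% to 33.7%) for FOXO alone and 19.5% (12.9% to 27.6%) for rd. The intervals cover counting error only.

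By motif order the share was 16.5% ± 2.0 for FOXO_NFKB, 28.7% ± 5.3 for NFKB_FOXO, 29.5% ± 5.5 for FOXO_NFKB_FOXO and 34.4% ± 5.1 for FOXO_NFKB_FOXO_FOXO. It was 46.7% ± 8.7 for NFKB_FOXO_NFKB, 46.0% ± 5.0 for FOXO_NFKB_FOXO_NFKB and 73.6% ± 2.4 for FOXO_NFKB_FOXO_NFKB_FOXO (SD, n = 3 each), the last from only 24 barcodes, of which 22 had mRNA in some replicate. For 5 NFKB motifs it was 73.3% ± 11.5, from 15 barcodes, so that at this length alone the replicates of both overlapped. NFKB_FOXO exceeded FOXO_NFKB in each replicate, at 25.0%, 34.7% and 26.4% against 17.6%, 17.6% and 14.1%.

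Integrated levels were spread more widely and rested on few barcodes. Against rd of the same context, 10 of 21 arrays were called higher and 5 lower by limma on log2(summed RPM + 0.5), where 31.8% of 510 motif constructs were called higher and 32% lower. The contexts differed. In context 3, 6 of 7 were higher, led by FOXO_NFKB_FOXO_NFKB_FOXO at 5.49, 4.46 and 4.18 over rd in the 3 replicates (limma difference 4.71, SE 0.51, adjusted p = 2.5e-05; 8 barcodes; barcode SE 0.61 for the array and 0.75 for rd). In context 1, 4 of 7 were higher and 1, FOXO_NFKB_FOXO_NFKB, was lower at -0.75, a call lost without mRNA replicate 1 (-0.77) or 3 (-0.64), without the top barcode of each construct (-0.06) and with the replicate number as a block (limma adjusted p = 0.053). In context 2 none was higher and 4 were lower, the lowest being NFKB_FOXO at -2.22, -2.95 and -1.76, a difference of -2.31 (SE 0.36). Over the contexts the barcode SE was 0.36 to 0.96 for NFKB_FOXO and 0.75 to 1.19 for rd.

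The rd construct of context 2 had 84.0% of its mRNA in 1 of its 38 barcodes. Without the barcode with the most mRNA of each construct, an alternative chosen after seeing the data, 13 arrays were higher than rd, none was lower, and NFKB_FOXO in context 2 stood at 0.26 over rd. FOXO_NFKB_FOXO_NFKB_FOXO then stood at 3.82, 3.44 and 5.10 over rd in contexts 1, 2 and 3 and was called in all 3. The cut takes more from a construct with few barcodes with mRNA. In rd only 6 of 39, 12 of 38 and 6 of 46 barcodes had any in contexts 1, 2 and 3. Higher values over rd can therefore come in part from the cut itself. The array FOXO_NFKB_FOXO_FOXO in context 1, at 3.34, 2.74 and 3.27 over rd, had 77.5% of its mRNA in 1 of 9 barcodes and stood at 3.43 without it.

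Against homotypic arrays the integrated library gave a like order, with most mixed arrays called above FOXO and none called above NFKB. By limma, 14 of 21 were higher than FOXO alone and none lower, where 42.7% of 131 mixed arrays with FOXO were higher. FOXO_NFKB_FOXO_FOXO in context 1 was higher by 4.85 (SE 0.70) and FOXO_NFKB_FOXO_NFKB in context 3 by 3.44 (SE 0.33). The SEs of these comparisons leave out the spread between barcodes. Over the contexts the barcode SE was 0.52 to 0.87 for FOXO_NFKB_FOXO_FOXO, 0.32 to 1.31 for FOXO_NFKB_FOXO_NFKB and 0.63 to 0.92 for 4 FOXO motifs. FOXO_NFKB_FOXO_NFKB_FOXO was called higher in contexts 1 and 2, by 3.79 (SE 0.84) and 1.88 (SE 0.62), and not in context 3, at 5.47 (SE 2.26), where the FOXO array's replicates ran from -5.70 to 2.26 over rd. The call in context 2 was lost without mRNA replicate 3, at 1.38, and FOXO_NFKB and NFKB_FOXO in context 2 lost theirs without mRNA replicate 1, at 0.91 and 0.84. Without the top barcode of each construct 11 of 20 were higher, and FOXO_NFKB_FOXO_NFKB in context 3, then at 5.57, was no longer called (limma adjusted p = 0.092). Against NFKB alone none was higher and 7 were lower, where 4.04% of 99 mixed arrays with NFKB were higher and 48.5% lower. These 7 were FOXO_NFKB in contexts 1 and 3 (-0.997 and -2.95), FOXO_NFKB_FOXO in context 1 (-1.93), FOXO_NFKB_FOXO_FOXO in contexts 2 and 3 (-2.51 and -2.09), FOXO_NFKB_FOXO_NFKB_FOXO in context 1 (-1.40) and NFKB_FOXO_NFKB in context 2 (-1.10). The 5-motif array that was above 5 NFKB motifs on plasmids in context 1 was thus below them after integration, but without the top barcode of each construct its difference was -0.17 and not called, and 5 NFKB motifs had only 5 barcodes there. FOXO_NFKB in context 3 lost its call without mRNA replicate 1 or 2, at -2.14 and -2.88. The other 14 arrays were not called against NFKB, and 4 of the 21 differences were positive. The largest was FOXO_NFKB_FOXO_FOXO in context 1, at 4.61 (limma adjusted p = 0.16). Without mRNA replicate 2 it was called higher, at 1.82.

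Exchange of the motifs after integration was called in 3 of 6 pairs by limma, close to the 49% of 155 exchanges called in either direction. Those 3 were lower with FOXO first, whereas 3 of the 6 differences were positive. With at least 10 barcodes per construct, the median difference was 0.12 over 5 pairs, in place of -0.58 over 6. FOXO_NFKB was below NFKB_FOXO by -1.28 in context 1 and -2.94 in context 3 (SE 0.28 and 0.94), and FOXO_NFKB_FOXO below NFKB_FOXO_NFKB by -2.04 (SE 0.48) in context 1. These SEs leave out the spread between barcodes. Over the contexts the barcode SE was 0.46 to 0.91 for FOXO_NFKB and 0.36 to 0.96 for NFKB_FOXO. It was 0.69 to 0.86 for FOXO_NFKB_FOXO and 0.22 to 0.35 for NFKB_FOXO_NFKB. The call in context 3 was lost without mRNA replicate 1 or 2, at -2.20 and -2.60. The other pairs were not called, at 0.16 (SE 0.35) and 0.12 (SE 0.52) in context 2 and 0.29 (SE 0.39) for FOXO_NFKB_FOXO in context 3.

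Of 21 integrated extensions, 6 were higher and 2 lower by limma, where 19.5% of 486 were called higher and the same 19.5% lower. The 6 were NFKB_FOXO over NFKB in contexts 1 and 3 (3.27 and 0.95), NFKB_FOXO_NFKB over NFKB_FOXO in context 2 (1.23), FOXO_NFKB_FOXO over FOXO_NFKB in context 3 (4.09), FOXO_NFKB_FOXO_FOXO over FOXO_NFKB_FOXO in context 1 (2.83) and the fifth motif in context 1 (3.33). The 2 lower were the same steps in other contexts, NFKB_FOXO over NFKB in context 2 (-0.94) and FOXO_NFKB_FOXO_FOXO over FOXO_NFKB_FOXO in context 3 (-1.73). Of 21 differences between contexts, taken without subtracting rd, 3 were higher and 7 lower, 34.2% of 489 being called among all designs. Of 188 arrays with 1 motif replaced, 61 comparisons were higher for FOXO and NFKB and 30 lower, where a mixed array was the higher one in 23.7% of comparisons counted in both directions. IRF in place of NFKB gave the higher activity in 10 of 19 of these and the lower in 2.

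As a description, each mixed array was also compared with a mean of the 2 homotypic arrays of its length, on the log2 scale, in which each counted by its share of the motifs. At 5 bp the departure was 0.10 to 0.23 for FOXO_NFKB, 0.62 to 0.97 for NFKB_FOXO, 0.98 to 1.39 for FOXO_NFKB_FOXO, 1.37 to 2.10 for FOXO_NFKB_FOXO_FOXO, 1.45 to 1.75 for FOXO_NFKB_FOXO_NFKB and 1.81 to 2.46 for FOXO_NFKB_FOXO_NFKB_FOXO over the 3 contexts, and 0.66 to 0.90 for NFKB_FOXO_NFKB. On a linear scale FOXO_NFKB fell below that mean, at -0.31 to -0.06, and the other orders stayed above it. At 10 bp the departure was 0.58 to 0.71 for NFKB_FOXO, 0.91 to 1.19 for FOXO_NFKB and 1.83 to 2.44 over the 4 longer orders. After integration it ran from -1.34 to 4.79.

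Over the 21 designs, activity over rd on plasmids at 5 bp and after integration had a Pearson correlation of 0.46, and of 0.30, 0.80 and 0.82 within contexts 1, 2 and 3 (7 designs each). The designs of a context share its rd construct in each assay, and the values are descriptive.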

How the data were processed

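Per the file headers, the deposited episomal tables hold raw counts of reads for each barcode in plasmid and mRNA libraries, and the deposited integrated table holds RPM for each barcode in mRNA and genomic DNA. Aligner and counting steps were not given in the sources used here. Of the per-sample columns, 9 were left aside. Barcodes without a construct name (16.6% to 18.5% of episomal reads) and barcodes with under 5 plasmid reads were left out, and the rest were summed per construct (at least 5 barcodes; 3 after integration). Members and lists were chosen with earlier results of these data known.

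Each pair of constructs was fitted as the interaction of construct and material: the counts with edgeR 4.0.16 (quasi-likelihood), the integrated values with limma 3.58.1 on log2(RPM + 0.5), in R 4.3.3, with Benjamini-Hochberg adjustment over all pairs of a kind in a library. Spacers were compared over 6 libraries with TMM scaling; the tests of a difference between spacers were added after the single-library fits had been seen. There was 1 plasmid library per spacer, taken to vary like the mRNA libraries, so p-values leave out spread between barcodes and plasmid preparations. Standard errors over barcodes treat barcodes as independent. The self-test used simulated data. Named arrays were all designs by their range, the highest and lowest over rd, and those called against NFKB or under exchange; single extensions, replacements and context differences were picked for naming after their values were seen. Alternatives included DESeq2 1.42.0, other read and barcode minimums, other pseudocounts and a replicate block. In the integrated library same-numbered mRNA and genomic DNA samples did not deviate together across constructs (correlations of -0.02, 0.05 and -0.03).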

Additional observations from a re-analysis of the deposited data

Results flagged for a closer look

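Differences that changed between the spacers by a test of the change itself (edgeR's interaction term, Benjamini-Hochberg adjusted) are listed here as values. The difference from the NFKB array of equal length changed in 17 of 18 mixed arrays, 16 of which were higher and 1 lower with 10 bp spacers. The effect of placing FOXO before NFKB changed in all 3 contexts, by 1.35 in context 1, 0.78 in context 2 and 0.93 in context 3. The array that begins with NFKB was the more active at 5 bp and the one that begins with FOXO at 10 bp. In context 2 the 10 bp order was lost with barcodes of at least 20 plasmid reads, at -0.0076. Each spacer had its own plasmid pool and mRNA libraries, and what part the pools had in these differences was not tested. No group held 4 or more samples, so no sample was examined as an outlier.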

How the results depend on the processing

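Of the counts of calls, the median departures from homotypic arrays and the share of barcodes with mRNA, 346 recomputed values kept their direction and size, within 1.5 times for a count. A further 10 counts moved by more, 8 median departures moved by more than the replicate SD with the same sign, and 2 turned their sign. Median differences and differences of single arrays were tallied apart. Of those, 1812 were the same, 38 moved, 24 were stronger, 22 were weaker and 9 turned their sign. Scaled on rd, no array was higher at 10 bp (0, in place of 2), and FOXO_NFKB in context 1 turned from 0.49 to -0.22. With at least 20 plasmid reads per barcode FOXO_NFKB minus NFKB_FOXO in context 2 at 10 bp turned from 0.20 to -0.0076. The median departure from homotypic arrays was 1.23, 1.91 and 0.94 at 5 bp, at 10 bp and after integration, and -0.13, 1.01 and -0.72 against the stronger homotypic array, and 0.70, 1.80 and 0.056 on the linear scale. It was 1.34 and 1.96 at 5 and 10 bp with at least 20 plasmid reads, and 1.90 at 10 bp with at least 1. After integration, without the barcode with the most mRNA (chosen after seeing the data), arrays lower than rd fell from 5 to 0, extensions called lower from 2 to 0 and pairs with a replaced motif called lower from 30 to 17. FOXO_NFKB, NFKB_FOXO, FOXO_NFKB_FOXO_NFKB and NFKB_FOXO_NFKB in context 2 then turned from -2.15, -2.31, -0.28 and -1.08 against rd to 0.076, 0.26, 2.12 and 1.53. Leaving out that barcode can lower rd, with few barcodes with mRNA, more than the arrays. With at least 10 barcodes per construct the median effect of exchange was 0.12 in place of -0.58.

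Leaving out 1 integrated mRNA replicate at a time gave 1 to 4 extensions called lower, 3 to 5 context differences called higher, 0 to 1 arrays above NFKB, 0 to 1 below FOXO and a median departure of 1.14 to 1.27. FOXO_NFKB in context 3, at 0.20 against rd, ranged from -0.90 (without replicate 3) to 0.88, and FOXO_NFKB_FOXO_NFKB in context 1, at 0.75 against NFKB alone, from -2.17 (without replicate 2) to 2.37. With the replicate number as a block (replicate block), extensions called lower after integration were 1 in place of 2, arrays below rd were 4 in place of 5, and no other count moved by over 1.5 times; 18 and 14 arrays, for example, were above rd and NFKB at 10 bp. Without 1 episomal replicate the pairs have no residual degrees of freedom and give values with no test. Pairs called neither before nor after were given no direction. Few barcodes per integrated array, 1 plasmid library per spacer and barcodes without mRNA missing from the episomal tables limit these values. The cause of each change was not tested.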
